A study of Zea mays with 9 samples.

Results

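*MIR172* precursor transcripts and *AP2*-like transcription factor genes were measured in the shoot apex of maize seedlings, in wild type and in *dcl1-2*. The members are the 5 rows of the deposited gene table whose ID begins with zma-MIR172 and 4 *AP2*-like genes listed by ID, 9 of 45498 rows in all. *MIR172e* was not in the list of names but begins with the same prefix and was kept. The reference name table pairs *ids1* with GRMZM5G862109 and *sid1* with GRMZM2G176175. GRMZM2G700665 is called *rap2.7* as listed, since the name table gives it no name. GRMZM2G362718 stood in the list in the place of *gl15*, but the name table gives *gl15* to GRMZM2G160730. GRMZM2G362718 is therefore called by its ID, with no role, and *gl15* is compared as GRMZM2G160730, together with 3 more genes that the study's target list assigns to miR172.

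There were 4 groups of 2 libraries, each from pooled laser-microdissected tissue of 14-day-old seedlings grown in 16 h of light and 8 h of dark. The mutant carried *dcl1-2*, an allele of the dicing enzyme *DCL1*, crossed for several generations into the inbred B73. Wild type is labelled B73, and by the methods of the study the seedlings compared came from the same family as the mutants. The central zone (CZ) of the shoot apical meristem, which holds the stem cells, and the P3 leaf primordia were taken from each genotype. A small RNA library came from whole apices of wild-type B73, so mature miR172 was not measured in *dcl1-2* or in either tissue alone. The study calls *dcl1-2* hypomorphic, and all cells of the plant carry it.

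miR172 pairs with a site in the coding part of *AP2*-like transcripts and represses them by cleavage and by reduced translation. In maize the juvenile-to-adult change of the shoot is set in part by miR156, which represses SBP-box genes, and by miR172, which accumulates later and represses *gl15*, a gene that keeps leaf epidermis juvenile. DCL1 cuts the hairpin of a *MIR172* transcript to release the mature miRNA.

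Both mature miR172 sequences of the apex were found and differed at 1 base outside the seed, the stretch from base 2 to base 8 printed in capitals.
miR172a,b,c,d: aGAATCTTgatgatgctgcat
miR172e: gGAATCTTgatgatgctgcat
Counted from the 5′ end of the miRNA, the difference is A1G, from miR172a,b,c,d to miR172e. Both are 21 nt long, and no other sequence among the 76 distinct mature sequences of the table holds this seed. miR172e had 87 reads (0.84 RPM by the authors' value, scaled to the mapped reads) and miR172a,b,c,d had 54 reads (0.52 RPM). The exact Poisson 95% intervals are 69.7 to 107 reads for miR172e and 40.6 to 70.5 reads for miR172a,b,c,d, and do not cover replicate error, since there was 1 library. miR172e thus made up 61.7% of the 141 miR172 reads (95% Wilson interval, 53.5% to 69.3%). Together they were 0.00584% of the 2414776 reads in mature miRNAs, at rank 21 and rank 27 by reads. The reads of the 4 loci that share a mature sequence cannot be told apart.

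The predicted miR172 sites are shown because 3 of the 4 listed *AP2*-like genes hold 1 identical site. Capitals mark bases that do not form a Watson-Crick pair with miR172a,b,c,d.
*ids1*, *sid1* and *rap2.7*: CugcagcaucaucaGgauucu
*gl15*: CugcagcaucaucaGgauucC
GRMZM2G076602 and *EREB197*: CugcagcaucaucaCgauucC
GRMZM5G879527: guguggcaucaucaaguauuca
The sites of *ids1*, *sid1* and *rap2.7* were identical, with 19 Watson-Crick pairs to miR172a,b,c,d, a G:U pair at miRNA base 7 and a mismatch at base 21. That of *gl15* had a further mismatch at base 1, which is a pair with miR172e. The site of GRMZM2G076602 and *EREB197* had mismatches at bases 1, 7 and 21, of which base 1 is also a pair with miR172e. With miR172e the site of *ids1*, *sid1* and *rap2.7* had 18 Watson-Crick pairs and G:U pairs at bases 1 and 7. The sites of *ids1*, *sid1*, GRMZM2G076602 and *EREB197* lie nearer the 5′ end of the open reading frame and those of *rap2.7*, *gl15* and GRMZM5G879527 nearer its 3′ end. The GRMZM5G879527 site is 22 nt long and was not aligned here, so its letters are all in lower case. GRMZM2G362718 is not in the target list, and no site is shown for it.

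The CZ libraries held 24753974 to 30327603 counts each and those of P3 8626824 to 10328582, and replicates correlated at r = 0.971 to 0.986. Levels below are RPM computed from the counts and the total of each library, and are compared within a gene only, since they are not scaled by length. The meristem gene *kn1* was at 969.5 RPM or more in every CZ library but 5.13 RPM or less in every P3 library, and 3 YABBY leaf genes summed to at most 38.3 RPM in a CZ library but at least 345 RPM in one of P3, so the libraries matched their labels as meristem or leaf. Whether the meristem tissue was the CZ alone was not checked. The sample titles read SAM, and CZ stands in the source names. CZ libraries were single-end and P3 libraries paired-end, and tissue and layout cannot be told apart. *DCL1* was at 65.4 and 62.2 RPM in wild-type CZ and 84.0 and 91.7 RPM in the mutant CZ, and at 73.2 and 101 RPM in wild-type P3 and 141 and 136 RPM in the mutant P3. It did not pass in the CZ (log2 fold change 0.43, SE 0.14, edgeR adjusted p = 0.272) and in P3 passed the adjusted p but not the fold cutoff (0.74, SE 0.15, edgeR adjusted p = 0.0114). Its level does not check the labels, because a hypomorphic allele need not lower the transcript.

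*MIR172c*, at chromosome 4, positions 171125619 to 171127460 on the plus strand of the table, was the only *MIR172* precursor with more than 3 counts in any library. *MIR172a* and *MIR172d* had no count in any of the 8 libraries, which allows a level of up to 0.121 RPM in a CZ library and up to 0.348 RPM in a P3 library. *MIR172b* had 1 count in *dcl1-2* CZ replicate 2 and 1 count in wild-type P3 replicate 2. *MIR172e*, the locus of the inflorescence mutant *tasselseed4*, had 1 count in wild-type CZ replicate 1 and 3 counts in wild-type P3 replicate 1. These 4 precursors were not tested in any comparison, as only genes that reached a group mean of 1 RPM were. The mature sequence with more reads, miR172e, is thus the one whose named precursor was at or near 0 in the dissected tissues. The small RNA came from whole apices. The intervals and floors cover counting error only, and are too narrow in P3 if both mates of a read pair were counted, which the authors' RPM columns leave possible, with sums of 1297576 to 1342880 in P3. The positions come from the count table. The sources name B73 RefGen_v3, but precursor positions in the study's own list differ from those in the table, so the build of the positions is not settled.

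In the CZ *MIR172c* was at 3.03 and 1.73 RPM in wild type and at 0.48 and 0.67 RPM in *dcl1-2*. Both wild-type libraries lay above both *dcl1-2* libraries. The log2 fold change was −2.06 (SE 0.68, 95% interval −3.54 to −0.57, unadjusted p = 0.011), which did not pass after adjustment over 19897 genes (edgeR quasi-likelihood test, adjusted p = 0.273). Summed over replicates, 138 wild-type counts stood against 29 in *dcl1-2*, a ratio of 4.18 in RPM (exact 95% counting interval, 2.78 to 6.47), and this interval holds no replicate error. The summed level of the YABBY leaf genes was 9.92 and 38.3 RPM in wild-type CZ and 7.15 and 14.2 RPM in *dcl1-2* CZ. These sums overlap through *yab14* (5.34 and 29.3 against 3.55 and 10.2 RPM). Of the other 2 genes, *yab10* was at 1.95 and 5.45 RPM in wild type and 1.01 and 1.55 RPM in *dcl1-2* (log2 fold change −1.57, SE 0.62, edgeR adjusted p = 0.399), and *yab9* at 2.64 and 3.57 against 2.59 and 2.46 RPM. Both were higher in both wild-type libraries, in the same direction as *MIR172c*, and the part of leaf tissue in the *MIR172c* values was not tested. In bulk tissue, fewer cells of a type and less RNA per cell cannot be told apart.

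In P3 the 2 wild-type libraries disagreed on *MIR172c*. Replicate 1 had 1 count (0.10 RPM) and replicate 2 had 138 counts (16.0 RPM), a ratio of 155 (exact 95% counting interval, 27.3 to 6151). Of the 17033 genes with at least 100 counts over these 2 libraries, 1 gene differed more between them, with a pseudocount of 0.5 RPM. It was GRMZM2G047626, singled out after its values were seen, at 6 and 421 counts. The *dcl1-2* libraries were at 5.28 and 7.16 RPM and lay between the wild-type ones. The comparison of *dcl1-2* with wild type did not pass (log2 fold change −0.26, SE 0.86, 95% interval −2.10 to 1.58, edgeR adjusted p = 0.916). Without wild-type P3 replicate 2 the value was 5.78 (adjusted p = 0.00173), and without replicate 1 it was −1.25 (adjusted p = 0.0552), so no direction can be given. 2 other precursors that the study places in the vasculature with *MIR172c* did not show this split. *MIR156k* was at 10.97 and 8.46 RPM in wild-type P3 replicates 1 and 2, and *MIR169c* at 2.90 and 2.67 RPM. Both overlap other gene models and may share reads with them. The phloem sucrose transporter gene *sut1*, the only other matched member of 8 listed vascular markers, had at most 1 count in a library.

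Between tissues, *MIR172c* was higher in *dcl1-2* P3 than in *dcl1-2* CZ, with a log2 fold change of 3.30 (SE 1.14, edgeR adjusted p = 0.0206). All 4 libraries kept this order, but the call was lost in DESeq2 (adjusted p = 0.0607), without *dcl1-2* CZ replicate 1 (0.0937) or replicate 2 (0.0666) and without *dcl1-2* P3 replicate 2 (0.0740). In wild type the value was 1.49 (SE 1.02, adjusted p = 0.217). It was −4.61 without wild-type P3 replicate 2 (adjusted p = 0.00712) and 2.48 without replicate 1 (adjusted p = 0.00334). The interaction test of tissue and genotype did not pass (1.81, SE 1.48, adjusted p = 0.600), except without wild-type P3 replicate 2 (7.91, adjusted p = 0.0316). The gene model GRMZM2G420571 overlaps *MIR172c* on the same strand. Its counts were equal to those of *MIR172c* in 5 of 8 libraries and lower by 1 to 4 in the other 3, so the 2 models share their reads and cannot be told apart.

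**Figure D1:**
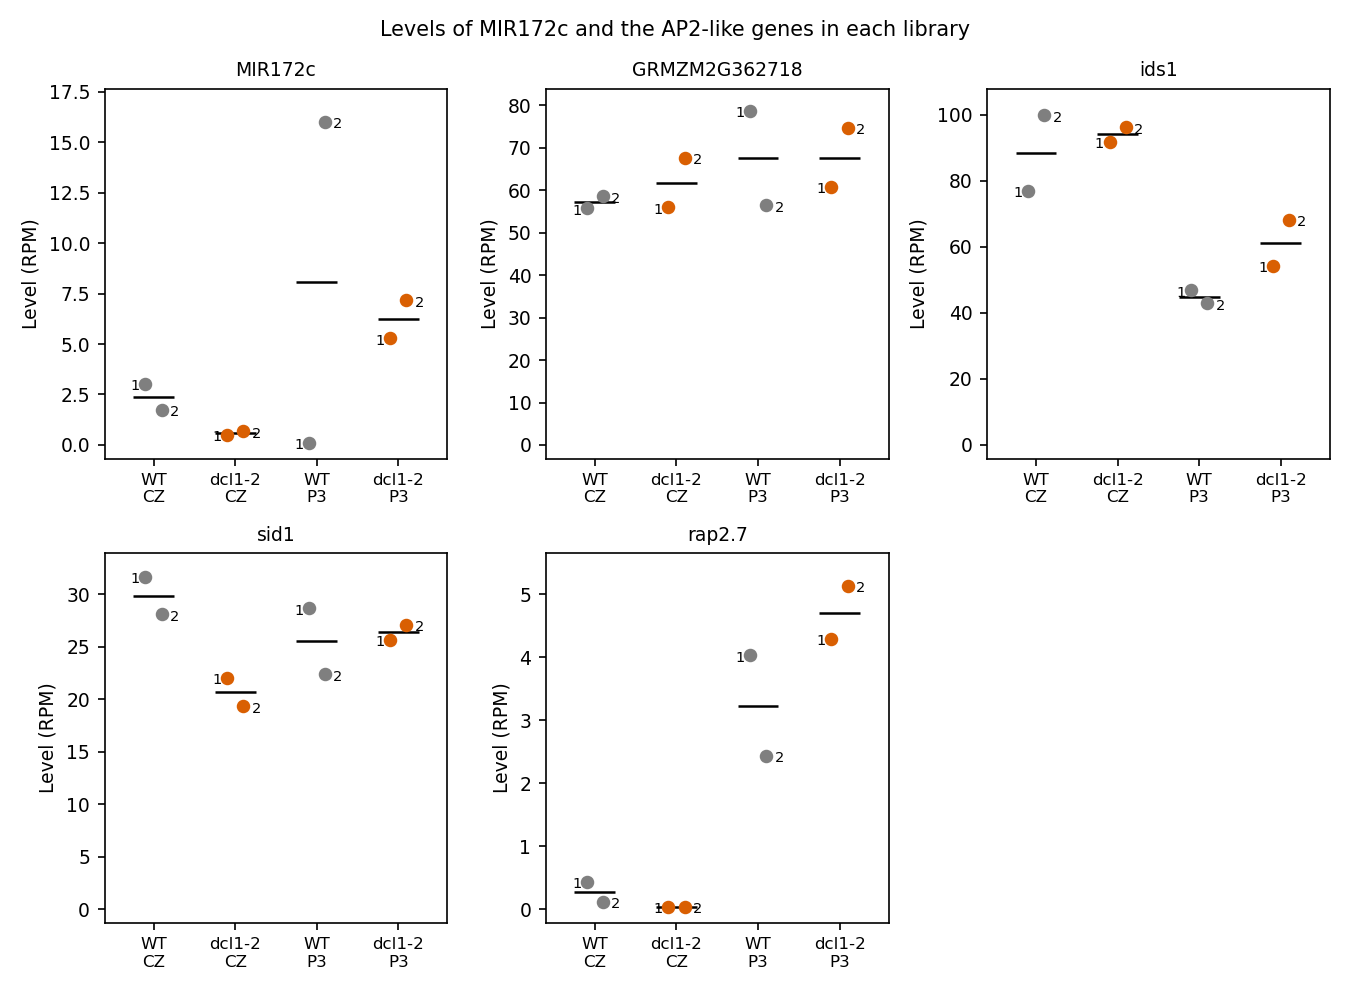
Level in RPM (y axis, from 0) of *MIR172c* and the 4 listed *AP2*-like genes in each of the 8 libraries; points are libraries with their replicate number, bars are means, grey is wild type (WT) and orange is *dcl1-2*. The wild-type P3 points of *MIR172c* lie at 0.10 and 16.0 RPM, and *rap2.7* is below 0.5 RPM in all CZ libraries.

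None of the listed *AP2*-like genes passed the test of *dcl1-2* against wild type. Differential expression was called where the adjusted p was below 0.05 and the log2 fold change was 1 or more in size. By this rule 0 of the 4 members tested in the CZ were called, against 0.246% of all genes, and 0 of the 5 tested in P3, against 2.76%. At an unadjusted p under 0.05 there were 2 in the CZ, *MIR172c* and *sid1*, and 1 in P3, *ids1*. DESeq2 called none of them either. The median log2 fold change over the tested members was −0.25 in the CZ and 0.11 in P3, and over all genes −0.0029 and −0.016.

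*ids1*, which limits the number of florets in a spikelet, was at 77.0 and 99.9 RPM in wild-type CZ and at 91.9 and 96.3 RPM in *dcl1-2* CZ. These ranges overlap (log2 fold change 0.06, 95% interval −0.30 to 0.41, edgeR adjusted p = 0.946). In P3 it was at 46.9 and 42.9 RPM in wild type and at 54.3 and 68.3 RPM in *dcl1-2*, with both mutant libraries above both wild-type ones. The log2 fold change of 0.52 (SE 0.18, 95% interval 0.14 to 0.89) did not pass (edgeR adjusted p = 0.121).

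*sid1*, which acts with *ids1* in the inflorescence, was at 31.7 and 28.1 RPM in wild-type CZ and at 22.1 and 19.3 RPM in *dcl1-2* CZ. The groups did not overlap, and the log2 fold change was −0.56 (SE 0.20, 95% interval −0.997 to −0.12, edgeR adjusted p = 0.322). In P3 the *sid1* levels of 28.7 and 22.4 RPM in wild type enclosed those of *dcl1-2*, 25.7 and 27.1 RPM (0.11, 95% interval −0.35 to 0.57, adjusted p = 0.850). The difference between the tissues in the effect was 0.68 for *sid1* (SE 0.30, adjusted p = 0.279) and 0.47 for *ids1* (SE 0.25, adjusted p = 0.386), and neither passed.

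*rap2.7*, a repressor of flowering in maize that the distant regulatory region *Vgt1* controls, was at 0.43 and 0.11 RPM in wild-type CZ and 0.04 and 0.04 RPM in *dcl1-2* CZ. It was under the minimum for a test there, with 16 counts in wild type and 2 in *dcl1-2*. In P3 its level was 4.03 and 2.43 RPM in wild type and 4.29 and 5.13 RPM in *dcl1-2*. Both mutant libraries were above both wild-type ones by a margin smaller than the gap between the wild-type libraries (log2 fold change 0.60, SE 0.51, 95% interval −0.48 to 1.68, edgeR adjusted p = 0.591). GRMZM2G362718 was at 55.8 and 58.6 RPM in wild-type CZ, 56.0 and 67.7 in *dcl1-2* CZ, 78.7 and 56.5 in P3 of wild type and 60.8 and 74.6 in *dcl1-2* P3. All pairs of groups overlapped except wild-type CZ and *dcl1-2* P3, and its log2 fold changes in *dcl1-2* were 0.08 in the CZ (95% interval −0.27 to 0.43) and 0.06 in P3 (−0.33 to 0.46).

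**Figure D2:**
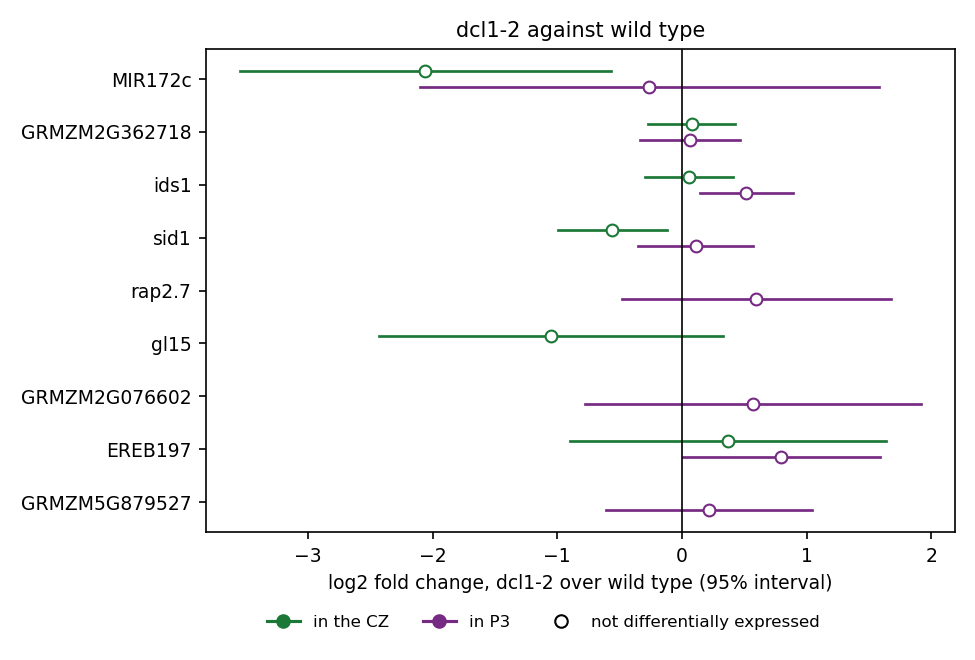
Log2 fold change of *dcl1-2* over wild type (x axis) for *MIR172c*, the listed *AP2*-like genes and the other predicted miR172 targets, in the CZ (green) and in P3 (purple); bars are 95% intervals and open points are genes not differentially expressed. All points are open, and the widest interval of a listed member is that of *MIR172c* in P3, −2.10 to 1.58; genes without a point in a tissue were not tested there.

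Between tissues some of the members were called. In wild type 1 of 5 tested members was higher in P3 (*rap2.7*) and 1 was lower (*ids1*), where 25.2% of all genes were higher and 19.5% lower. In *dcl1-2* 2 of 5 were higher (*rap2.7* and *MIR172c*) and 0 lower, where 27.5% and 21.5% of all genes were. 2 of 5 called in each genotype is near the background share of 44.7% in wild type and 49.0% in *dcl1-2*, so the count says nothing particular about these genes. The comparisons of tissues rest on all 8 libraries.

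*rap2.7* was 11.7 times higher in wild-type P3 than in wild-type CZ by summed counts, 60 against 16 (exact 95% counting interval, 6.64 to 21.7). The log2 fold change was 3.33 (SE 0.80, 95% interval 1.60 to 5.07, edgeR adjusted p = 0.00292). In *dcl1-2* it was 6.55 (SE 1.01, adjusted p = 8.78e-05), and the ratio of 118 by summed counts rests on 2 CZ counts (exact 95% counting interval, 31.9 to 993). All P3 libraries were above all CZ libraries, in both genotypes. Group means of *rap2.7* were at most 0.27 RPM in the CZ and at least 3.23 RPM in P3. It thus reached the minimum of 1 RPM only in the tissue where it was higher. That favours its calls, including those in the counts of members above. The tissue difference was larger in *dcl1-2* by 3.21 on the log2 scale, which did not pass the interaction test (SE 1.28, adjusted p = 0.232).

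*ids1* had the opposite order and was lower in P3 than in the CZ of wild type, with a log2 fold change of −1.20 (SE 0.18, 95% interval −1.58 to −0.81, edgeR adjusted p = 8.25e-05). It was −0.97 without wild-type CZ replicate 2, under the fold cutoff. In *dcl1-2* it was −0.73 (SE 0.18, adjusted p = 0.00283), past the adjusted p but not the fold cutoff. From highest to lowest group mean its level was 94.1 ± 3.1 RPM in *dcl1-2* CZ (SD, n = 2), 88.4 ± 16.2 in wild-type CZ, 61.3 ± 9.9 in *dcl1-2* P3 and 44.9 ± 2.8 in wild-type P3. The first 2 groups in this order overlapped, and the last 2 did not overlap, but their difference did not pass. *sid1* did not pass between tissues (−0.44 in wild type, SE 0.21, adjusted p = 0.0851, and 0.24 in *dcl1-2*, SE 0.21, adjusted p = 0.328), nor did GRMZM2G362718 (0.03 and 0.02, SE 0.19 in each, adjusted p = 0.896 and 0.923). The 95% interval of *sid1* in wild type, −0.89 to 0.015, overlaps that of *ids1*. Without wild-type P3 replicate 1 *sid1* was at −0.68 and passed the adjusted p (0.0362) but not the fold cutoff. Differences between genes in the effect of the tissue were not tested.

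**Figure D3:**
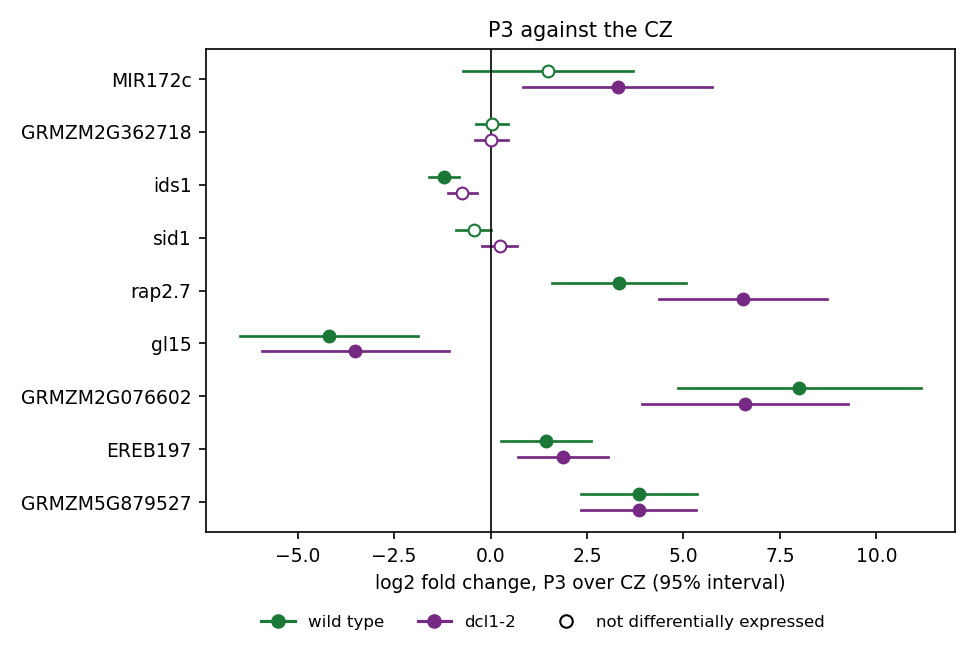
Log2 fold change of P3 over the CZ (x axis) for the same genes in wild type (green) and *dcl1-2* (purple); bars are 95% intervals, filled points are differentially expressed and open points are not. *ids1* and *gl15* lie left of 0 and *rap2.7*, GRMZM2G076602, *EREB197* and GRMZM5G879527 right of 0 in both genotypes.

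*gl15* was found mainly in the CZ. Its level was 3.89 and 3.16 RPM in wild-type CZ and 2.75 and 0.71 RPM in *dcl1-2* CZ, against 0.31 and 0.12 RPM in wild-type P3 and 0.33 and 0 RPM in *dcl1-2* P3. Every CZ library was above every P3 library. By summed counts the wild-type CZ was 16.2 times higher than wild-type P3, 202 counts against 4 (exact 95% counting interval, 6.24 to 60.1). The log2 fold change of P3 over the CZ was −4.18 (SE 1.07, edgeR adjusted p = 0.00425). In *dcl1-2* the ratio of 86 to 3 counts was 11.1 (exact 95% counting interval, 3.68 to 55.0), with a log2 fold change of −3.51 (SE 1.12, adjusted p = 0.0143) that did not pass without *dcl1-2* CZ replicate 1 (adjusted p = 0.137) or *dcl1-2* P3 replicate 2 (0.104). In the CZ *gl15* was lower in both *dcl1-2* libraries than in both wild-type ones, but did not pass (−1.05, SE 0.63, 95% interval −2.43 to 0.33, adjusted p = 0.623), and in P3 it was too low to test.

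The other 3 predicted targets of miR172 were found mainly in P3. GRMZM2G076602 had 0 counts in wild-type CZ and 1 count in *dcl1-2* CZ, against 1.86 and 2.09 RPM in wild-type P3 and 2.09 and 3.49 RPM in *dcl1-2* P3. Against a floor of 3 counts over the wild-type CZ group it was at least 37.4-fold higher in wild-type P3 (edgeR adjusted p = 0.000471). GRMZM5G879527 was at 0.69 and 0.26 RPM in wild-type CZ, 0.93 and 0.24 in *dcl1-2* CZ, 5.07 and 11.5 in P3 of wild type and 9.58 and 8.62 in *dcl1-2* P3. The tissue groups did not overlap, and the log2 fold changes were 3.85 in wild type (SE 0.70, adjusted p = 0.000368) and 3.84 in *dcl1-2* (SE 0.69, adjusted p = 0.000323). *EREB197*, named in the reference as an ethylene-response-element-binding family gene, was at 3.17 and 2.33 RPM in wild-type CZ, 1.66 and 5.59 in *dcl1-2* CZ, 5.90 and 11.6 in P3 of wild type and 10.1 and 18.5 in *dcl1-2* P3. All P3 libraries were above all CZ libraries, with log2 fold changes of 1.44 in wild type (SE 0.54, adjusted p = 0.0345) and 1.87 in *dcl1-2* (SE 0.54, adjusted p = 0.00800). These calls were lost without wild-type CZ replicate 2 (adjusted p = 0.122), wild-type P3 replicate 2 (0.262), *dcl1-2* CZ replicate 1 (0.0606) or *dcl1-2* P3 replicate 2 (0.0974). With *gl15*, 4 of 4 were called between tissues in each genotype, where 44.7% of all genes were in wild type and 49.0% in *dcl1-2*. *gl15*, GRMZM2G076602 and GRMZM5G879527 reached the minimum of 1 RPM only in the tissue where they were higher, which favours a call. The count of 4 therefore says nothing particular about these genes. In *dcl1-2* against wild type 0 of 2 tested in the CZ and 0 of 3 tested in P3 were called, where 0.246% and 2.76% of all genes were, and *EREB197* in P3 had the smallest unadjusted p of these (0.80, SE 0.37, unadjusted p = 0.0486, edgeR adjusted p = 0.275).

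**Figure D4:**
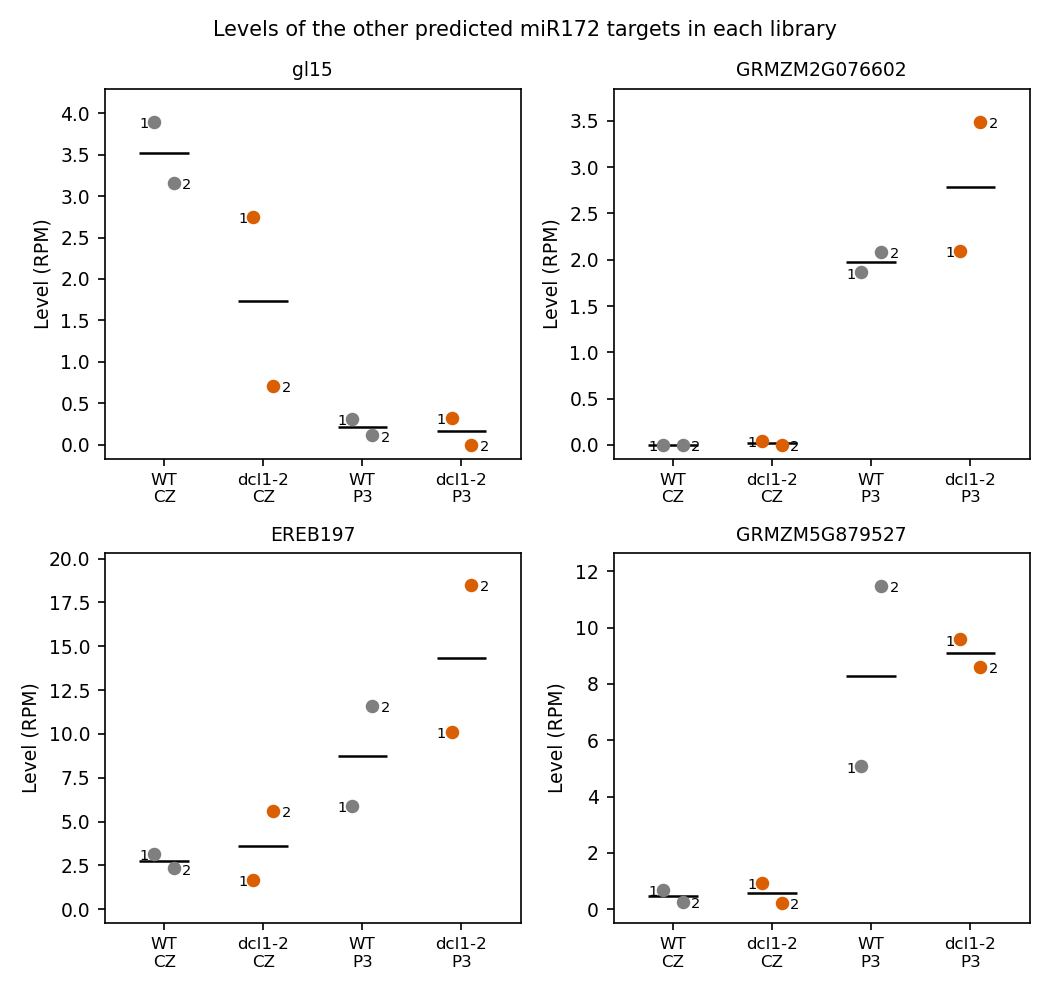
Level in RPM (y axis, from 0) of *gl15* and the other 3 predicted miR172 targets in each of the 8 libraries, drawn as in the plot of the members' levels. *gl15* reaches 3.89 RPM in the CZ but no more than 0.33 RPM in P3, and GRMZM5G879527 has the opposite order, with a highest CZ level of 0.93 RPM and P3 levels from 5.07 to 11.5 RPM.

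Other genes of the juvenile-to-adult change and of flowering were taken from a list of 35 names, of which 27 were in the table. Of the 12 *MIR156* precursors in it *MIR156k* was at 3.50 and 2.33 RPM in wild-type CZ, 0.77 and 3.53 in *dcl1-2* CZ, 10.97 and 8.46 in P3 of wild type and 7.16 and 4.84 in *dcl1-2* P3, and the other 11 were at 1.32 RPM or less in every library. *MIR156j* had 4 and 0 counts in wild-type CZ and none in *dcl1-2* CZ, and 1 and 2 counts in wild-type P3 (0.10 and 0.23 RPM) against 12 and 8 counts in *dcl1-2* P3 (1.32 and 0.77 RPM). Both *dcl1-2* P3 libraries were above all others, but *dcl1-2* against wild type in P3 did not pass, with a log2 fold change of 2.63 (SE 1.12, unadjusted p = 0.0328, edgeR adjusted p = 0.225), the largest of the 12 tested genes of the list. By summed counts, 20 against 3, the ratio was 6.28 (exact 95% counting interval, 1.86 to 33.0). The SBP-box gene *lg1* and the flowering regulator *id1* had no count, and the florigen gene *ZCN8* was at 0.22 RPM or less. Of the leaf wax genes, listed by symbol, *gl1* was matched and the rest were not.

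In *dcl1-2* 0 of 11 tested genes of this list were called in the CZ, against 0.246% of all genes, and 0 of 12 in P3, against 2.76%. An unadjusted p under 0.05 was found for 3 and 5 of them, and DESeq2 called none. The median log2 fold changes were 0.14 in the CZ and 0.28 in P3. In P3 2 genes passed the adjusted p, as 4.50% of all genes did, but not the fold cutoff. The SBP-box gene *ub3*, which limits the number of kernel rows, was at 76.0 and 74.1 RPM in wild type and 112 and 108 RPM in *dcl1-2* (log2 fold change 0.62, SE 0.14, edgeR adjusted p = 0.0211). The *LEAFY*-like gene *zfl1* was at 22.9 and 21.6 RPM in wild type and 31.5 and 41.4 RPM in *dcl1-2* (0.78, SE 0.21, adjusted p = 0.0463). Epidermal markers were also higher in *dcl1-2* P3. The 4 matched of 5 listed, the *ocl* homeobox genes, summed to 371 and 372 RPM in wild type and 491 and 506 RPM in *dcl1-2*, and 2 of them passed the adjusted p but not the fold cutoff, *ocl3* (0.81, adjusted p = 0.0320) and *ocl5* (0.62, adjusted p = 0.0247). Their part in the values of *ub3*, *zfl1* and *ids1* in P3 was not tested. In the CZ *zfl1* was at 1.62 and 0.49 RPM in wild type and 0.16 and 0.28 RPM in *dcl1-2* (−2.26, SE 0.92, adjusted p = 0.411). These levels rest on few counts, 49 and 13 in wild type and 4 and 7 in *dcl1-2*. *zfl1* was the only gene of the list called for the difference between tissues in the effect of *dcl1-2*, 1 of 14 tested against 2.06% of all genes (3.06, SE 0.68, edgeR adjusted p = 0.0362). That call was lost on leaving out any of 7 of the 8 libraries, the exception being wild-type CZ replicate 2 (adjusted p 0.0660 to 0.166 in the 7). In the same test the matched leaf and epidermal markers did not pass. The values were 1.92 for *yab10* (edgeR adjusted p = 0.0802), 1.82 for *yab14* (0.277) and 0.48 for *yab9* (0.523). They were 1.46 for *ocl3* (0.0576) and 0.66 for *ocl1* (0.145), with a 95% interval of 0.28 to 1.98 for *ocl5* (0.166). *ocl4* was at 0.007 (95% interval −0.45 to 0.46). The part of these markers in the value of *zfl1* was not tested.

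Between tissues 5 of 14 tested genes of the list were higher and 1 lower in wild-type P3, and 5 were higher and 2 lower in *dcl1-2* P3. Of all genes 25.2% were higher and 19.5% lower in wild type and 27.5% and 21.5% in *dcl1-2*, so that 6 and 7 of 14 calls are near the background shares of 44.7% and 49.0%. *tga1*, *gl1*, *zap1*, *MADS15* and *MIR156j* reached the minimum of 1 RPM only in the tissue where they were higher, which favours their calls. The wax gene *gl1* was at 0 and 0.16 RPM in *dcl1-2* CZ and 0.88 and 3.29 RPM in *dcl1-2* P3 (log2 fold change 4.50, SE 1.58, edgeR adjusted p = 0.0229). That call was lost in 2 of 10 alternatives. The SBP-box gene *tga1*, known for the glume of the kernel, was at 0.46 and 0.04 RPM in wild-type CZ and 3.72 and 1.97 RPM in wild-type P3 (log2 fold change 3.26, SE 0.88, edgeR adjusted p = 0.00585), and the call was lost without wild-type P3 replicate 1 (adjusted p = 0.0562). In *dcl1-2* it was at 0.08 and 0.12 RPM in the CZ and 5.17 and 9.49 RPM in P3 (edgeR adjusted p = 0.000173). GRMZM2G180190, which has no name in the name table, was at 4.65 and 0.30 RPM in wild-type CZ, 0.89 and 0.63 in *dcl1-2* CZ, 26.5 and 20.3 in P3 of wild type and 18.7 and 28.6 in *dcl1-2* P3. Its log2 fold changes of P3 over the CZ were 3.03 in wild type (SE 0.70, adjusted p = 0.00224) and 4.84 in *dcl1-2* (SE 0.80, adjusted p = 0.000151). *zfl1* was higher in P3 by 4.16 in wild type (SE 0.43) and 7.22 in *dcl1-2* (SE 0.53). The MADS-box gene *zap1*, an *APETALA1*-like gene, had 85 counts in wild-type CZ and 104 in *dcl1-2* CZ and no count in P3. Against the floor of 3 counts over the P3 group it was at least 9.10-fold higher in the CZ in wild type and 13.5-fold in *dcl1-2*. The MADS-box gene *MADS15* had 114 counts in *dcl1-2* CZ and 3 in *dcl1-2* P3, a ratio of 14.8 (exact 95% counting interval, 4.92 to 72.6), and was called lower in *dcl1-2* P3 (log2 fold change −3.94, SE 1.31, edgeR adjusted p = 0.0175). It was not called when *dcl1-2* CZ replicate 2 (adjusted p = 0.206) or *dcl1-2* P3 replicate 1 (0.112) was left out. *MIR156j*, with 20 counts in *dcl1-2* P3 and none in *dcl1-2* CZ, was at least 17.2-fold higher in P3 against the floor of 3 counts over the CZ group (adjusted p = 0.00473). The SBP-box gene *sbp6* was at 18.6 and 20.8 RPM in wild-type CZ and 53.5 and 45.8 RPM in wild-type P3 (1.12, SE 0.19, adjusted p = 0.000238), under the fold cutoff without wild-type P3 replicate 1 (0.95). The co-repressor gene *rel2* was at 259 to 343 RPM in all 8 libraries and was called in no comparison.

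The genes with the pattern most like a member over the 8 libraries were found by Pearson's r of log2(RPM + 1) among genes that averaged 5 RPM or more. The points share library and depth, and r is a description. For *MIR172c*, leaving out the overlapping GRMZM2G420571, these were GRMZM2G068755 (r = 0.956) and GRMZM2G107187 (r = 0.936). *ids1* was closest to GRMZM2G064759 (r = 0.991) and GRMZM2G142999 (r = 0.985), *sid1* to GRMZM2G143651 (r = 0.938) and GRMZM2G172244 (r = 0.922), and GRMZM2G362718 to GRMZM2G303735 (r = 0.916) and GRMZM2G134759 (r = 0.910). *rap2.7* was closest to GRMZM2G028766 (r = 0.998) and GRMZM2G302639 (r = 0.997), 2 of 2201 genes above 0.95 for *rap2.7*, where *ids1* had 125, *MIR172c* 1 and *sid1* and GRMZM2G362718 none.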

How the data were processed

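RNA-seq was made from linearly amplified RNA of laser-microdissected tissue. The authors trimmed the reads with Trimmomatic, aligned them with TopHat to B73 RefGen_v3 and deposited raw counts, per gene or curated precursor, of reads with a unique match. 1 blank count cell was read as 0. The authors also deposited RPM columns, which sum to at most 1018155 in the CZ and to 1297576 or more in P3 (recorded as a score there), and which were not used. RPM were recomputed from the counts. The authors deposited read counts and RPM values of mature miRNAs (cutadapt 1.13, Bowtie 1.1.2). Entries that repeat a sequence were merged, and 2 of the 161 entries with no value were read as 0. Names came from the RefSeq name table for maize (18884 rows matched), assembly Zm-B73-REFERENCE-NAM-5.0. Target sites came from the study's supplemental list, sequences only. The study chose its targets from predicted sites with sequenced cleavage ends in seedling apices, and further ones by phylogeny. That evidence was not used here.

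Counts were tested with edgeR 4.0.16 (limma 3.58.1, R 4.3.3) by its quasi-likelihood test after TMM normalization, on genes that reached a mean of 1 RPM in a group, with the 4 libraries of a tissue for *dcl1-2* against wild type and all 8 libraries in 4 groups for the contrasts of tissues. P-values were adjusted by Benjamini-Hochberg. The SE is the size of the log2 fold change over the root of F. Each fit was tested on simulated data. DESeq2 1.42.0, other filters and normalizations, a replicate block and leaving out each library were alternatives. Python 3.11.15 (numpy 2.4.6, scipy 1.17.1, pandas 2.3.3, matplotlib 3.10.9) was used for the rest. The members and lists were chosen with earlier results of these data known. The genes named are the members, *DCL1*, the other listed miR172 targets, up to 4 passing genes of the phase-change list by smallest p in each comparison and direction, and the 2 genes with the highest r for each expressed member; markers, the gene overlapping *MIR172c* and further genes of the phase-change list were named in addition, after their values were seen. The 2 replicates per group are biological replicates by the methods of the study.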

Additional observations from a re-analysis of the deposited data

Results flagged for a closer look

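Over the genes of the phase-change list, the members and the other miR172 targets, the interaction test of tissue and genotype passed for *zfl1*, a *LEAFY*-like gene, with a log2 difference of 3.06, P3 minus CZ, (SE 0.68, edgeR adjusted p = 0.0362). Both *dcl1-2* libraries were under both wild-type libraries in the CZ (0.16 and 0.28 against 1.62 and 0.49 RPM), and both were above them in P3 (31.5 and 41.4 against 22.9 and 21.6 RPM). The CZ levels rest on few counts, 4 and 7 in *dcl1-2* against 49 and 13 in wild type. Leaving out 1 library gave 1.97 to 3.63, and the adjusted p was lost in 7 of 8 cases (0.0660 to 0.166). The matched markers of leaf and epidermis did not pass the same test. The values were 1.92 for *yab10* (edgeR adjusted p = 0.0802), 1.82 for *yab14* (0.277) and 0.48 for *yab9* (0.523). They were 1.46 for *ocl3* (0.0576) and 0.66 for *ocl1* (0.145), with a 95% interval of 0.28 to 1.98 for *ocl5* (0.166). *ocl4* was at 0.007 (95% interval −0.45 to 0.46). The part of these markers in the value of *zfl1* was not tested.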

How the results depend on the processing

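The count of differentially expressed genes in the CZ, 49, was 206 with DESeq2, 433 with no filter on low counts, 91 at a minimum of 5 RPM, 199 with all 8 libraries in 1 model and 42 to 449 on leaving out 1 library. In P3 622 became 1012 by adjusted p alone, 308 with all 8 libraries in 1 model and 442 to 779 on leaving out 1 library. For the difference between tissues 484 became 770 with DESeq2, 1245 with no filter and 79 to 817 on leaving out 1 library. With the replicate number as a block the counts were 198 in the CZ, 886 in P3 and 445 for the difference. The numbers do not pair the samples, as deviations of libraries with the same number correlated at −0.0998 to 0.0676. With the replicate block, *MIR172c* in P3 was at 0.75 (adjusted p = 0.447).

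The direction of 2 *MIR172c* results depended on the wild-type P3 library left out, −1.25 without replicate 1 and 5.78 without replicate 2 for *dcl1-2* against wild type in P3, and 2.48 and −4.61 for wild-type P3 against the CZ. With no filter that tissue contrast passed (1.49, adjusted p = 0.0137). The cause was not tested. None of the listed *AP2*-like genes was called in *dcl1-2* against wild type under any alternative run, in the tissues where they were tested. Alternatives were not recorded for *rap2.7* in the CZ, where it was under the minimum for a test. As a percentage of reads in mature miRNAs, miR172e was at 0.00360 and miR172a,b,c,d at 0.00224, and with entries not merged at 0.000550 and 0.00137. Of the 10 genes most like a member, 1 was also chosen by Spearman's rho. Depth limits most results on precursors, of which 4 of 5 had at most 3 counts in a library.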
